A study of Mus musculus with 2 samples.

Results

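The clustered protocadherin genes of the mouse form 3 neighbouring tandem arrays on chromosome 18, Pcdha, Pcdhb and Pcdhg. They were followed here in 2 bisulfite libraries of hippocampal DNA. The RefSeq table for GRCm38.p6 lists 58 such genes by symbol, 14 of Pcdha, 22 of Pcdhb and 22 of Pcdhg, all on chromosome 18. The members are the CpG cytosines of mm9 chromosome 18 in 3 spans, 37085000 to 37350000 for Pcdha, 37420000 to 37690000 for Pcdhb and 37815000 to 38003000 for Pcdhg. They were chosen by position and by coverage, with at least 10 reads required in both libraries. This left 4568 of the 2312276 cytosines analysed in all, 1489 in Pcdha, 1133 in Pcdhb and 1946 in Pcdhg. Neither the level nor the difference between the libraries entered the choice of cytosines, but both were known when these genes were proposed, so the values below are descriptions.

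Each library came from the hippocampus of C57BL/6 mice, and each group held 1 library. The control mice had no treatment. In the other group, called ATO below, the parents drank water with 5000 ppb arsenic trioxide (ATO) from before mating until lactation, and their offspring drank it from weaning until the experiment ended. Whether 1 animal or several went into each is not stated in the labels, nor is the age or sex of the mice. With 1 library per group there is no replicate check, and every difference below is between 2 libraries and not between conditions.

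Clustered protocadherins are cell surface adhesion proteins that neurons use to tell their own branches from those of other neurons. In Pcdha and Pcdhg each variable exon has its own promoter and is spliced to exons shared by the whole cluster, while each Pcdhb gene is a single coding exon. A neuron uses a small and largely random set of the variable promoters, and DNA methylation at the promoter and exon is one of the marks that accompany a silent choice. The C-type genes at the end of Pcdha (Pcdhac1, Pcdhac2) and of Pcdhg (Pcdhgc3, Pcdhgc4, Pcdhgc5) are used more uniformly. All 3 arrays are transcribed toward higher coordinates, so downstream below means higher coordinates. The methylation level of a cytosine is the percentage of its reads that kept a C after bisulfite, which does not tell methylcytosine from hydroxymethylcytosine. In DNA from whole tissue, a partial level cannot tell apart cells that differ from each other and alleles that differ within a cell.

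Depth was higher in the arrays than elsewhere. The median coverage of their cytosines was 68 reads in the control and 75 with ATO, against 41 and 45 at other autosomal cytosines. All but 2 of the 4568 cytosines lay on the reverse strand, the strand that holds 95.3% of analysed cytosines on the other autosomal DNA. No exon positions of mm9 were used here, so a value is given by position and is not assigned to a gene. Variable exons of an array resemble each other in sequence, and how reads that fit several of them were placed is not given in the sources used here. Its part in the level of a single stretch was not tested.

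The arrays were partly methylated, and most so in Pcdhb. In Pcdhb the mean level over cytosines was 61.3% in the control and 62.5% with ATO (SD between cytosines 23.7 and 23.4). Pcdha stood at 54.5% and 55.6% (SD 28.7 and 28.5), and Pcdhg at 36.4% and 38.2% (SD 26.9 and 28.1). The order Pcdhb, Pcdha, Pcdhg was thus the same in both libraries, and cytosines within an array spread widely. Other autosomal cytosines averaged 38.0% and 36.7%.

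A mean near the middle came here from cytosines that were themselves near the middle. Between 20 and 80%, taken over both libraries, lay 62.7% of the cytosines of Pcdha, 68.5% of Pcdhb and 58.4% of Pcdhg. Elsewhere on the autosomes this share was 26.6%, and most cytosines there lay close to either end of the scale. Below 10% were 9.20% in Pcdha, 2.47% in Pcdhb and 18.1% in Pcdhg, against 44.6% elsewhere. Above 90% were 10.7%, 8.47% and 4.57%, against 14.5% elsewhere.

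The contrast was widest in CpG-dense DNA, which is where variable exons and their promoters lie. A 500-bp bin was taken as dense when it held at least 15 analysed cytosines, and its level was the share of C among all its calls. Of 128 dense bins in the arrays 106 (82.8%, exact Clopper-Pearson 95% interval 75.1 to 88.9) were partly methylated, between 20 and 80%. Of 37478 dense autosomal bins outside them 11.4% were (interval 11.1 to 11.7). These intervals treat bins as independent, but neighbouring bins share reads and sequence, so they are a rough scale only. By array, 29 of 30 dense bins of Pcdhb, 39 of 46 of Pcdha and 38 of 52 of Pcdhg were partly methylated.

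**Figure D1:**
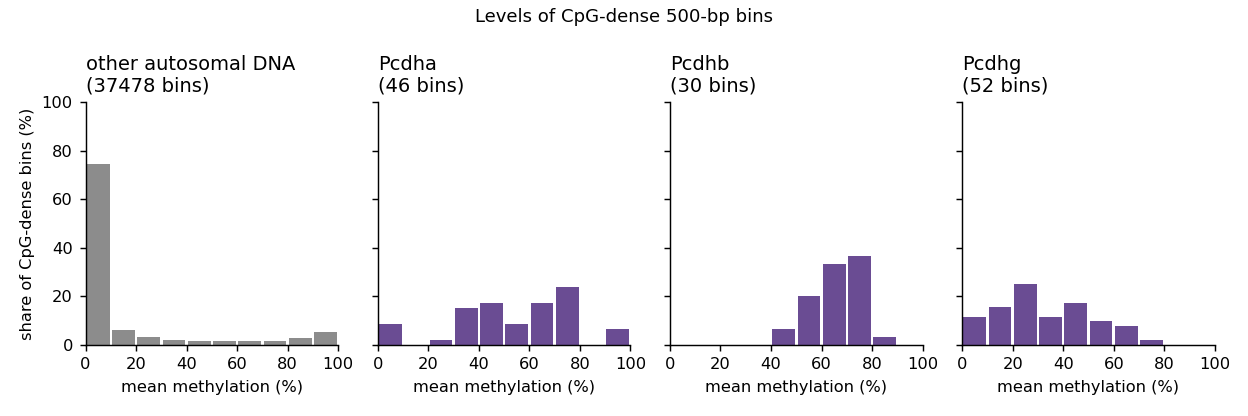
Share of CpG-dense 500-bp bins (y axis, percent) by mean methylation of both libraries in 10-point classes (x axis, percent), for autosomal DNA outside the arrays and for each array. Of the bins outside the arrays 74.4% lie below 10%, whereas the Pcdhb bins lie between 40 and 90% and the Pcdhg bins below 80%.

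The dense bins of the 3 arrays also differed from each other in level. Their median was 68.1% in Pcdhb (quartiles 60.3 and 72.4), 59.1% in Pcdha (39.5 and 71.8) and 27.9% in Pcdhg (18.4 and 45.4). The median of dense bins elsewhere was 2.74%. Pcdhb had 0 of its 30 dense bins under 10%, Pcdha 4 and Pcdhg 6.

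To follow the repeats along the arrays without exon positions, runs of at least 10 analysed cytosines with neighbours at most 300 bp apart were taken as CpG stretches and numbered from the upstream end. There were 26 stretches in Pcdha, 34 in Pcdhb and 40 in Pcdhg, and together they held 4467 of the 4568 cytosines. A stretch had a median length of 933 bp in Pcdha, 913 bp in Pcdhb and 986 bp in Pcdhg. The gaps over 1500 bp that separate groups of stretches had medians of 4.70 kb, 6.25 kb and 3.54 kb.

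**Figure D2:**
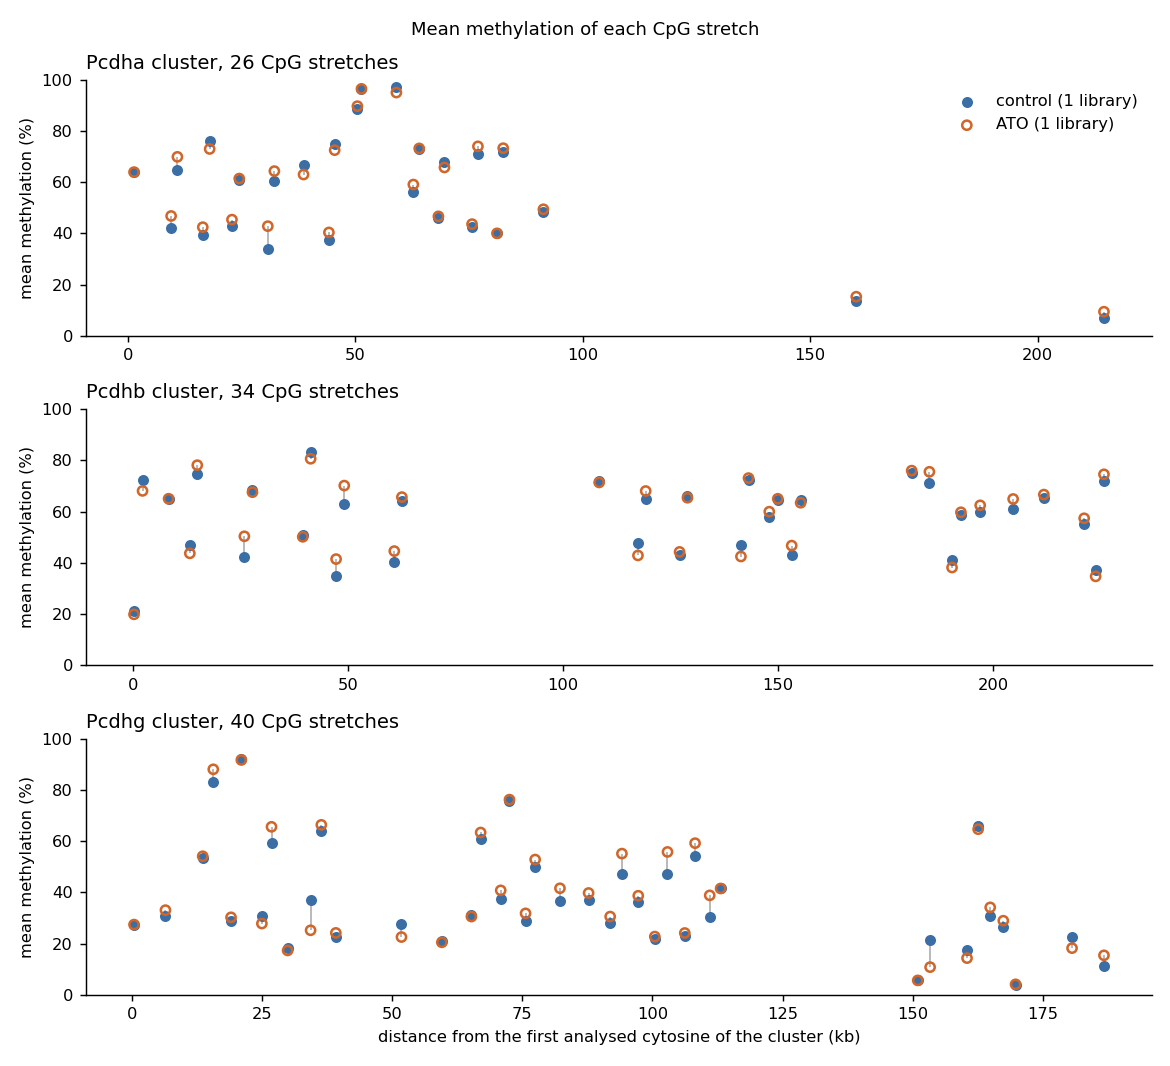
Mean methylation (y axis, percent) of each CpG stretch against its distance from the first analysed cytosine of the array (x axis, kb), with filled points for the control and open points for the ATO library, 1 library each. Many lower stretches of Pcdha and Pcdhb have a higher one next to them on the right, and the 2 isolated stretches at the right of Pcdha lie below 20% in both libraries.

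In Pcdha and Pcdhb each stretch with a near neighbour downstream was lower than that neighbour. Pcdha had 10 sets of neighbouring stretches at most 1500 bp apart, and the downstream one had the higher level in 10 of 10, in both libraries. The upstream stretches had a lowest, median and highest level of 33.8%, 42.3% and 88.7% in the control, and the downstream ones 60.3%, 71.4% and 96.3%. The mean rise was 24.8 points (SD 9.29 between neighbours) in the control and 22.7 points (SD 8.87) with ATO. The smallest rise in the control, 7.59 points, belonged to the neighbours that were both highly methylated.

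Pcdhb showed the same order, with the downstream stretch higher in 13 of 13 neighbours in each library. Its upstream stretches ran from 21.1% through a median of 43.0% to 57.7% in the control, and its downstream ones from 58.7% through 66.1% to 83.4%. The 2 sets did not overlap in the control and met at the edge with ATO, where they reached up to 59.99% and down to 59.8%. The mean rise was 25.9 points (SD 10.5) in the control and 26.2 points (SD 11.1) with ATO.

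Pcdhg was less regular. The downstream stretch was the higher one in 13 of 18 neighbours in each library, and the sign was the same in both libraries for all 18. The mean change was 16.7 points in the control with an SD of 25.4, and single changes ran from -35.3 to 63.3 points. Among 10400 sets of neighbouring autosomal stretches outside the arrays, the one at higher coordinates was higher in 50.2% in the control. Strands of transcription are mixed there, so this share cannot tell how common a rise along transcription is elsewhere. The size of the step there had a median of 15.01 points in the control, against 25.7 points over the 41 neighbours of the arrays. By the mean the sizes were close, 24.0 points there and 25.9 points in the arrays (24.0 and 26.2 points with ATO).

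**Figure D3:**
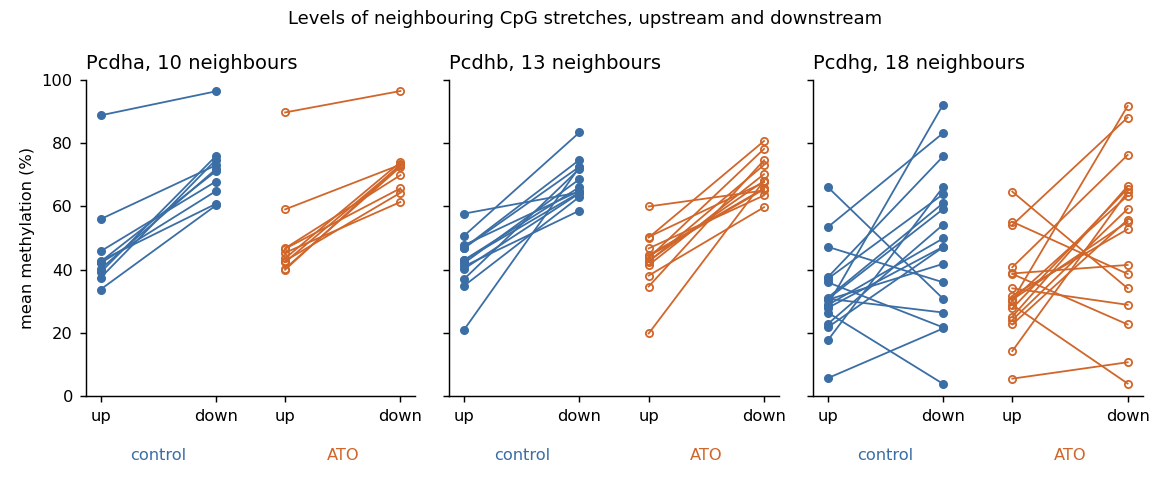
Mean methylation (y axis, percent) of neighbouring CpG stretches at most 1500 bp apart, with a line from the upstream to the downstream stretch of each set of neighbours, control at the left and ATO at the right of each panel. All 10 lines of Pcdha and all 13 of Pcdhb rise in both libraries, and 5 of the 18 lines of Pcdhg fall.

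Inside a stretch the direction was not the same in the 3 arrays. Stretches with at least 40 cytosines were compared between their upstream and downstream cytosines, in equal numbers. In Pcdhb 14 of 15 such stretches fell downstream in the control and 15 of 15 with ATO, with median changes of -18.5 and -14.8 points. The median level fell there from 74.4% in the upstream part to 56.2% in the downstream part of the control. In Pcdha 15 of 20 rose in the control and 14 with ATO, and in Pcdhg likewise 15 and 14 of 20. Their median changes were 3.55 and 3.81 points in Pcdha, and 7.87 and 10.8 points in Pcdhg.

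The downstream ends of Pcdha and Pcdhg, the ends at which their C-type genes lie, were less methylated than the rest. The 24 stretches of Pcdha from 37089582 to 37182185 averaged 59.6% in the control and 60.6% with ATO over 1324 cytosines. After a gap of 67.0 kb, stretch 25 (37249150 to 37250263) had 13.4% and 15.2% over 53 cytosines. After a further 52.9 kb, stretch 26 (37303125 to 37305204), the lowest of Pcdha, had 7.09% and 9.39% over 100 cytosines. Both libraries thus placed these 2 stretches below each of the other 24, of which the lowest stood at 33.8% in the control and 39.99% with ATO.

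Pcdhg behaved alike across its own gap. Its first 31 stretches, up to 37928715, averaged 40.6% in the control and 43.2% with ATO over 1476 cytosines. The 9 stretches that follow a gap of 36.0 kb, from 37964746 to 38002349, averaged 18.1% and 17.5% over 425 cytosines. These 9 were mixed, with levels from 3.99% to 66.1% in the control and from 4.09% to 64.7% with ATO. Stretch 38 (37984271 to 37985249) was the lowest of the array at 3.99% in the control and 4.09% with ATO over 17 cytosines.

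Pcdhb also has a long gap, of 44.9 kb, but its level was alike on either side. The 13 stretches before it averaged 62.3% in the control and 63.5% with ATO, and the 21 after it 62.6% and 63.7%. The lowest stretch of Pcdhb was its first one (37454157 to 37454610), with 21.1% and 19.9% over 14 cytosines. Its last one (37679395 to 37680355) had 71.9% and 74.6%. The highest, stretch 9 (37494951 to 37495950), had 83.4% in the control and 80.7% with ATO.

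A few stretches were nearly fully methylated in both libraries. Stretches 13 to 15 of Pcdha follow each other and had 88.7%, 96.3% and 97.3% in the control and 89.7%, 96.4% and 94.99% with ATO. Stretch 14 (37140666 to 37141205) was the highest of Pcdha by the mean of both libraries. Stretches 13 and 15 were singled out after their values were seen. In Pcdhg the highest was stretch 6 (37835835 to 37836290), with 92.1% in the control and 91.7% with ATO over 12 cytosines and median coverages of 17 and 41.5 reads. The first stretch of Pcdha (37089582 to 37092281) stood at 63.8% and 63.9%, and that of Pcdhg (37815018 to 37815887) at 27.3% and 27.4%.

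The series asks how developmental ATO exposure relates to DNA methylation in the hippocampus. In the arrays the ATO library was slightly higher than the control, while over all other autosomal cytosines together it was lower. Over the 4568 cytosines the mean difference, ATO minus control, was 1.48 points (SD between cytosines 11.1). The half-width of the 95% counting interval set beside it was 0.82 points, from exact binomial intervals on summed calls divided for shared fragments. This half-width was computed for levels from summed calls and not for a mean over cytosines, so it is a rough scale only. It leaves out variation between animals. By array the difference was 1.15 points in Pcdha (SD 10.8), 1.28 points in Pcdhb (SD 9.61) and 1.85 points in Pcdhg (SD 12.1), with half-widths of 1.56, 1.34 and 1.34 points. Of the single arrays Pcdhg passed its half-width, and with each call weighted alike so did Pcdha at 1.70 points and Pcdhb at 1.37 points. Partly methylated cytosines of the arrays varied by more than counting error, as given below, and the half-widths leave that out. Passing a half-width is therefore no test. Other autosomal cytosines differed by -1.30 points (SD 11.9). Means over all cytosines of the DNA next to the arrays did not show that loss throughout, but levels were not matched there. In the 100 kb downstream of Pcdhg 165 cytosines differed by 1.09 points (SD 11.6). Between Pcdha and Pcdhb the difference was 0.046 points, and between Pcdhb and Pcdhg 0.14 points. In the 100 kb upstream of Pcdha it was -0.14 points over 17 cytosines. At cytosines between 20 and 80% the signs were mixed. The difference was 2.51 points downstream of Pcdhg (57 cytosines) and -0.73 points between Pcdha and Pcdhb (2 cytosines). It was -5.39 points between Pcdhb and Pcdhg (18 cytosines) and -4.90 points upstream of Pcdha (6 cytosines). Other autosomal cytosines between 20 and 80% differed by -3.80 points.

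Since differences in percent depend on the level, bins of the arrays were set beside autosomal bins of the same level. The 260 bins of the arrays with at least 5 analysed cytosines differed by 1.07 points (SD 4.75). Autosomal bins outside them, averaged over 10-point level classes with the weights of the arrays, differed by -2.90 points. The arrays thus lay 3.96 points above bins of the same level, with 4.13 points in Pcdha, 5.02 points in Pcdhb and 3.15 points in Pcdhg. With classes that also hold the number of cytosines per bin and the depth alike, the distance for the 3 arrays was 3.47 points. In each comparison the sign was the same in the 3 arrays.

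**Figure D4:**
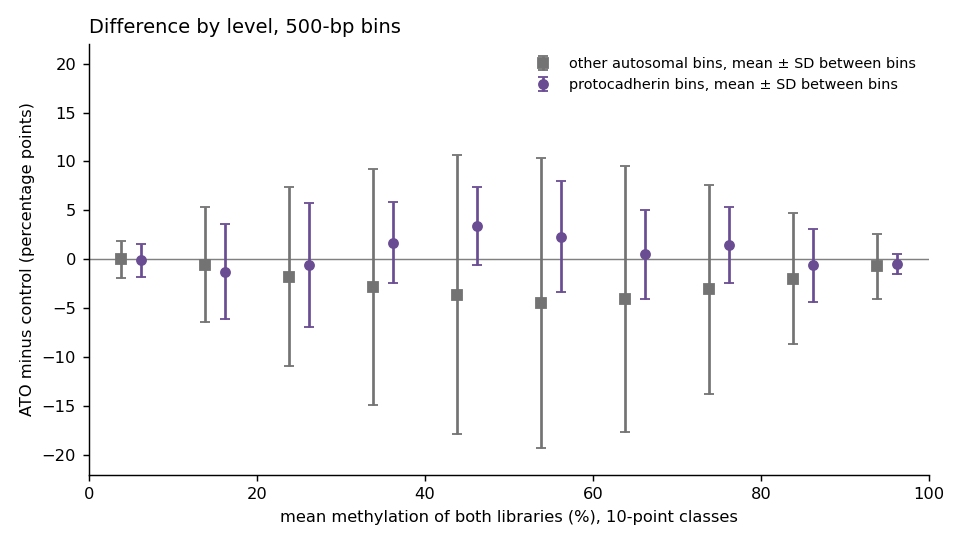
Mean difference, ATO minus control (y axis, percentage points), of 500-bp bins by mean methylation of both libraries (x axis, percent, 10-point classes), for bins of the arrays and for other autosomal bins; bars are the SD between bins. From 30 to 80% the array bins lie above 0 on average and the others below 0, and the bars of the arrays are the shorter ones.

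The distance was widest at intermediate levels. Between 40 and 50% the 34 bins of the arrays differed by 3.37 points (SD 3.98) and 8488 autosomal bins by -3.61 points (SD 14.3). Of these, 28 of 34 (82.4%) had the higher level with ATO, compared with 38.6% of the autosomal ones. Between 50 and 60% the values were 2.31 points (SD 5.66, 39 bins) and -4.46 points (SD 14.8). Below 30% and above 80% the arrays had means below 0. Between 10 and 20% their 20 bins differed by -1.27 points (SD 4.85), between 20 and 30% their 28 bins by -0.59 points, and between 90 and 100% their 9 bins by -0.48 points. Autosomal bins differed by -0.53, -1.77 and -0.73 points in the same classes, in that order. Below 10% the values were -0.10 points in the arrays and 0.0014 points in autosomal bins. Below 20% the arrays thus did not lie above autosomal bins of the same level.

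The libraries also differed less from bin to bin in the arrays than elsewhere. The size of the difference regardless of sign averaged 3.66 points in the 260 bins of the arrays and 8.87 points in autosomal bins of the same level, 2.42 times as much. In classes of level, number of cytosines and depth together the autosomal value was 7.38 points, still 2.02 times that of the arrays. Among partly methylated bins the SD of the differences was 4.91 points over 211 bins of the arrays and 12.5 points over 58430 autosomal bins. The arrays were deeper than the rest, and depth lowers counting error, so the values within a depth range follow.

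At cytosines between 20 and 80% with 80 to 159 reads in the shallower library, the SD of the difference was 9.11 points in the arrays (1021 cytosines) and 16.0 points elsewhere (116004 cytosines). The dispersion, which is the mean squared difference in units of counting error and is 1 under counting error alone, was 2.27 in the arrays and 6.71 elsewhere in that range. With 10 to 39 reads it was 1.97 and 2.84. Over all depths it was 2.16 in the arrays and 4.31 elsewhere. The values thus lay above counting error in the arrays too, and below those of other partly methylated cytosines in each depth range computed.

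No 500-bp bin of the arrays was called. The criterion for a bin was an adjusted p below 0.05 (Fisher's exact test on summed calls divided for shared fragments, Benjamini-Hochberg over 152175 bins) together with a difference of at least 20 points. Over all tested bins 1.80% were called, 1.17% lower and 0.63% higher in the ATO library. In the arrays 0 of 260 were. If bins were independent this would allow a share of up to 1.15%, but neighbouring bins share reads and sequence, so that limit is too narrow. Autosomal bins of the same level were called at 3.92%, and at 3.06% when the number of cytosines was also held alike. At an unadjusted p under 0.05 by the same exact test there was 1 bin of 260 (0.38%). The share was 15.5% in autosomal bins of the same level, and 12.2% with the number of cytosines also held alike. In the arrays it was below the nominal 0.05, so the test on divided calls was strict there. The 1 bin of the arrays (Pcdhb, 37502501 to 37503000) had 68.0% in the control and 80.8% with ATO over 7 cytosines. It was named after its value was seen.

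Few single cytosines of the arrays were called. With Fisher's exact test at an adjusted p under 0.05 over all 2312276 cytosines and a difference of at least 25 points, 47 of 4568 (1.03%) were called, against 2.65% of all tested. Of the 47, 34 were higher and 13 lower in the ATO library. Over the genome 0.916% were called higher and 1.73% lower. The share called higher in the arrays, 0.744%, was near that background, and the share called lower was 0.285%. Among partly methylated cytosines 1.41% were called in the arrays and 9.34% elsewhere on the autosomes. Pcdha held 17 of the 47, Pcdhb 8 and Pcdhg 22.

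The cytosine with the smallest p, at 37502941 in Pcdhb, had 35.4% of 144 reads in the control and 71.8% of 110 reads with ATO (Fisher's exact test, adjusted p = 2.97e-06). Its neighbour 37502943 had 57.9% and 86.4%, and both lie in stretch 11. A larger gain by size, on fewer reads, was at 37182113 in Pcdha, from 8.70% of 23 reads to 65.9% of 44 reads (Fisher's exact test, adjusted p = 0.00064). These 3 were chosen after their values were seen. The bins around them were not called, and the bin of the first 2 is the 1 named above.

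Most stretches were higher in the ATO library by small amounts. Of 100 stretches 68 were higher and 32 lower, 20 of 26 in Pcdha, 21 of 34 in Pcdhb and 27 of 40 in Pcdhg being higher. Among partly methylated stretches 70.9% of 86 were higher, against 33.7% of 23628 autosomal ones. In 87 of the 100 the difference was within 5 points, and in 2 it was beyond 10 points. Of 56426 autosomal stretches of any level 38983 were within 5 points and 7935 beyond 10 points. Pearson's r between control and ATO levels was 0.99 over the 100 stretches, a description over stretches that share libraries and not replicates. This r was 0.976 over the autosomal stretches and 0.975 over those of Pcdhb, so a high r was not particular to the arrays.

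**Figure D5:**
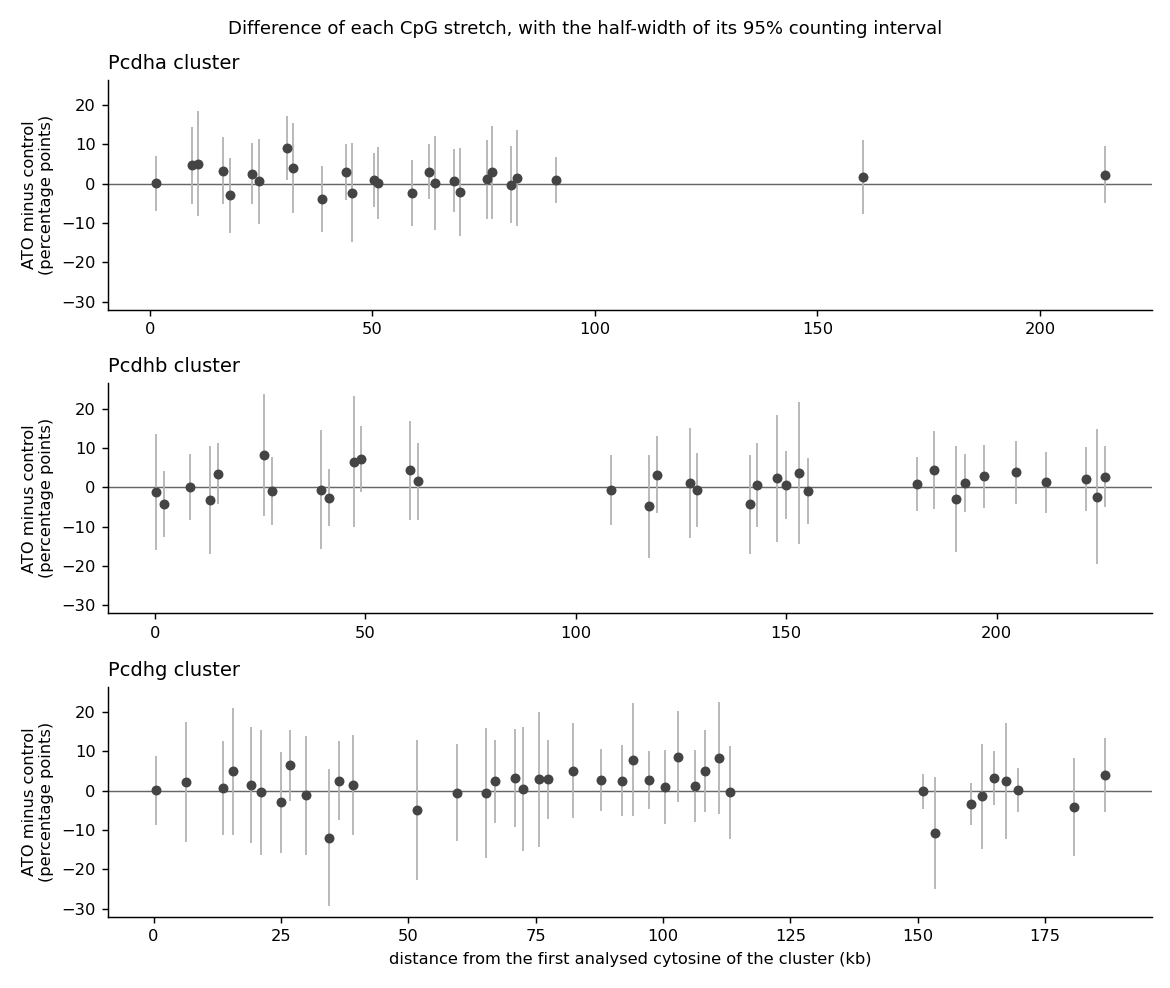
Difference, ATO minus control (y axis, percentage points), of each CpG stretch against its distance from the first analysed cytosine of the array (x axis, kb); bars are the half-width of the 95% counting interval on summed calls divided for shared fragments. The bar of 1 of the 100 stretches, at 9.04 points in Pcdha, does not reach 0.

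The largest gain in Pcdha was at stretch 8 (37119880 to 37120813), a lower stretch of a repeat. It rose from 33.8% in the control to 42.8% in the ATO library over 41 cytosines, 37 of them higher, with median coverages of 117 and 134 reads. Its difference of 9.04 points was the only one of the 100 beyond its counting half-width, 8.14 points. With each call weighted alike it was 8.13 points, no longer beyond that half-width, and with neighbours at most 600 bp apart, which joins it to stretch 9, it was 5.88 points. The next gain, at stretch 3 (37100108 to 37100838), was 5.03 points (half-width 13.3), from 64.8% to 69.9%, or 2.94 points with each call weighted alike. The largest losses of Pcdha were smaller, from 66.8% to 63.0% at stretch 10 (37127018 to 37129383) and from 75.9% to 73.0% at stretch 5 (37107095 to 37108026). Stretch 10 was higher with ATO, by 1.26 and 0.96 points, at coverage minimums of 20 and 30, and the -2.94 points of stretch 5 ranged from -4.49 to -0.50 over the alternatives.

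In Pcdhb the largest gains were at stretch 6 (37479759 to 37480314), from 42.1% to 50.4% over 16 cytosines, and at stretch 11 (37502832 to 37503690), from 63.0% to 70.2% over 44 cytosines. Stretch 11 holds the adjacent called cytosines named above and had 32 cytosines higher and 12 lower. The largest losses were at stretch 15 (37571147 to 37571933), from 47.8% to 42.9%, and stretch 19 (37595088 to 37595871), from 46.8% to 42.5%. At a coverage minimum of 30 the difference of stretch 19 was -0.94 points, against -4.36 points here. Each of these 4 differences was within its counting half-width, which lay between 8.45 and 15.5 points.

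Pcdhg held the largest losses of the 100 stretches. Its largest gains were smaller, and stretch 27 (37917333 to 37918494) went from 47.1% to 55.8% over 43 cytosines, 34 of them higher, and stretch 30 (37925409 to 37926637) from 30.5% to 38.8% over 73 cytosines. The losses, both beyond 10 points with the coverage minimum of 10, were at stretch 10 (37849012 to 37849723), from 37.1% to 25.2% over 22 cytosines, and stretch 33 (37967946 to 37968755), from 21.5% to 10.8% over 27 cytosines. The -11.9 points of stretch 10 became -7.17 at a minimum of 20 and -6.88 with each call weighted alike, and the 8.31 points of stretch 30 became 4.52 at a minimum of 30. Both losses came from shallower DNA, with median coverages of 24 and 28 reads, and of 35 and 46 reads. All 4 differences were within their half-widths, from 11.6 to 17.4 points. The last stretch of Pcdhg (38001129 to 38002349) had 11.3% in the control and 15.4% with ATO, a difference whose sign turned at a minimum of 30 (-1.68 points).

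The parts of each array on either side of its long gaps were also set side by side, with no test of the difference between them. The 31 stretches before the long gap of Pcdhg differed by 2.56 points over their cytosines (SD 12.5), and 23 of them were higher in the ATO library. The 9 after it differed by -0.63 points (SD 10.2), and 4 of them were higher, among them the last by 4.08 points, while stretch 33 fell by 10.7 points. In Pcdha the isolated stretches 25 and 26 were higher by 1.82 and 2.30 points (4.54 points for stretch 26 at a minimum of 30), within half-widths of 9.39 and 7.17 points. In Pcdhb the parts before and after the gap differed by 1.21 and 1.15 points.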

How the data were processed

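Target-enriched bisulfite libraries (SureSelect Methyl-Seq, mouse) from hippocampal DNA were sequenced, 1 per group. Bismark 0.19.0 (an aligner and caller for bisulfite reads), Bowtie2, bcl2fastq and the build mm9 are named in the submitters' processing notes. For trimming, duplicate removal and read placement no record was used here. Per the file headers, each deposited table gives for a CpG cytosine, by strand, the coverage as a raw count of reads and C and T as a percent of it. Methylated reads were recovered as coverage times percent C, whole for 100% of values within the rounding of 2 decimals. The arrays held 383342 calls in the control and 413404 with ATO, of 135987272 and 147924810 in all. Tables of positions in GRCm38.p6 served for gene names only.

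Bins of 500 bp needed at least 5 analysed cytosines. For tests and intervals on sums, calls were divided by the count of cytosines in the fullest 300-bp window, since cytosines of a fragment are not independent. If duplicates were kept, reads are not independent molecules either, and all intervals on calls cover counting error only. Intervals on shares of bins treat neighbouring bins as independent. Classes of level were set on the average over both libraries. Tests across all cytosines and bins used Python 3.11.15, numpy 2.4.6 and numba 0.67.0 and were tested on simulated data. The simulated cytosines were independent and had counting error alone, so they cannot give the error rate of the tests in these data. Named stretches are the first, last, highest and lowest of each array and the 2 largest losses and gains in each. Members, lists, stretches and tests were chosen with earlier results of these data known. Alternatives varied the coverage minimum, strand, weighting, bin size, thresholds, level classes and stretch definition. The order of neighbouring stretches was not recomputed under them. Lists of regulators and cell type markers were not used, for want of gene positions in mm9, so the tissue was not checked against markers.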

Additional observations from a re-analysis of the deposited data

How the results depend on the processing

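The 3.96 points between the arrays and autosomal bins of the same level ranged from 3.47 to 4.27 over 12 alternatives, and the mean difference of 1.48 points from 1.43 to 1.61 over 6; both kept their sign in the arrays together and in each array. Depth classes, and all results on the size of the difference, were added after seeing the data. That size lay 5.21 points lower in the arrays, 4.28 with the number of cytosines held alike and 3.72 with depth as well. The share of dense bins partly methylated, 82.8%, became 72.4% in 200-bp bins and 89.8% for 10 to 90% (4.41% and 20.3% elsewhere). The 47 called cytosines became 15 at an adjusted p below 0.01 and 106 at 10 points, by construction, against 1.73% and 3.804% of all tested. With all calls counted 1 bin was called (Pcdhg, 37849501 to 37850000, 38.6% and 18.05%, with 1.6e-07 as the adjusted p of Fisher's exact test), against 4.94% of all bins. The mean level of the arrays, 49.2%, was 49.6% and 50.2% at coverage minimums of 5 and 30 and 51.1% with calls weighted alike. With calls weighted alike Pcdha had 51.9%, Pcdhb 62.8% and Pcdhg 39.3%. Pcdhg had 38.1% at a minimum of 5, Pcdhb 62.9% at 30, and in stretches alone Pcdhb had 63.1% and Pcdhg 36.5%. The cause of these shifts was not tested.

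Of 149 values of named stretches under alternatives 15 changed sign. Pcdha stretch 10 became 1.26, 0.96 and 0.79 points at minimums of 20 and 30 and with neighbours at most 150 bp apart, so its loss depended on these settings. Pcdha stretch 14 became -0.58, -0.23 and -0.46 points (minimums of 20 and 30, calls weighted alike). Pcdhg stretch 38 became -0.15, -0.81 and -0.32 points (minimums of 5 and 30, calls weighted alike) and stretch 6 became 1.15, 0.18 and 0.017 points (minimum of 5, 150 bp, calls weighted alike). Stretch 1 of Pcdhg became -0.60 at 30, and stretch 40 -1.68 at 30 and -1.74 with 150 bp. No paired analysis was possible because each group has 1 library, and for the same reason no library could be left out.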

Other observations

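DNA between the arrays held few partly methylated cytosines. Between Pcdha and Pcdhb 58 cytosines averaged 5.39% in the control and 5.44% with ATO, and 3.45% of them lay between 20 and 80%. Between Pcdhb and Pcdhg 128 cytosines averaged 43.8% and 43.9%, with 14.1% of them between 20 and 80%, 46.1% under 10% and 25.8% above 90%. In the 100 kb downstream of Pcdhg 165 cytosines averaged 29.3% and 30.4%, with 34.5% of them between 20 and 80%. With Fisher's exact test 4 of them (2.42%) were called, near the 2.65% of all tested cytosines. In the 100 kb upstream of Pcdha only 17 cytosines were analysed, with means of 81.4% and 81.2%. On the rest of chromosome 18 cytosines differed by -1.37 points and 2.43% of 4329 bins were called.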
